A study of Homo sapiens with 8 samples.

Results

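Between day 5 and day 14 of cardiac differentiation, human cardiac progenitors (CP) become beating cardiomyocytes (CM), and the regions described here are those whose accessible chromatin was gained, lost or retained over that step. Peaks of the 2 CP and the 2 CM libraries on chromosomes 1 to 22 and X were merged into 178890 regions. A region was called opened when both CM libraries and neither CP library held a peak in it, closed in the reverse case, and kept when all 4 libraries held a peak. By this rule 4077 regions were opened (2.28% of all merged regions), 18357 were closed (10.3%) and 33642 were kept (18.8%). The remaining regions had a peak in some other combination of the 4 libraries and belong to no class.

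Accessibility was measured by ATAC-seq, in which the Tn5 transposase inserts sequencing adapters into open DNA, in the embryonic stem cell line RUES2. Undifferentiated cells (hESC, day 0), mesoderm (MES, day 2), CP (day 5) and CM (day 14) gave 2 libraries each. All cells had received the Wnt pathway activator CHIR-99021 in E8 medium on the day before day 0. MES and later cells were then given more CHIR-99021 in RPMI with albumin and ascorbic acid, CP and CM cells had the Wnt inhibitor Xav-939 from day 3 to day 5, and CM cells had RPMI with B27 from day 7. No sorting of the CM cells is given in the labels, although the study's methods state that CM cultures were used only above a set share of cells positive for cardiac troponin T, and all libraries come from 1 cell line. The submitters call the replicates biological and do not say how they were separated, so any p-value measures the spread between these libraries, which may be technical.

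Heart muscle is built from sarcomeres, in which thick filaments of myosin pull on thin filaments of actin between Z-discs, with titin spanning from the Z-disc to the center of the sarcomere. Contraction is triggered by calcium that enters through L-type channels and is released from the sarcoplasmic reticulum by the ryanodine receptor. The genes for these proteins are regulated by GATA4, NKX2-5, MEF2 factors, TBX5, HAND2 and SRF, which bind short DNA sequences at promoters and at distal enhancers, where most changes in accessibility during differentiation are found. In libraries made from whole cultures, fewer cells of a type and less accessibility per cell cannot be told apart.

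The sequences below give the 200 bp at the midpoint of the opened regions with the highest fold at a listed gene, outside exons and with a searched consensus. Fold is the height of the peak over its local background, and regions were ranked by the lower value of the libraries that hold the peak. All are from the plus strand of GRCh38. Capitals mark matches, on either strand, to the consensus of GATA factors (the letters AGATAA, with T also allowed at the first and G at the last position), of MEIS homeodomain factors (TGACAG), of NKX2-5 (TNAAGTG) and of MEF2. Matches to different consensus sequences could share bases.
RXRG opened region, chr1:165410081-165410280: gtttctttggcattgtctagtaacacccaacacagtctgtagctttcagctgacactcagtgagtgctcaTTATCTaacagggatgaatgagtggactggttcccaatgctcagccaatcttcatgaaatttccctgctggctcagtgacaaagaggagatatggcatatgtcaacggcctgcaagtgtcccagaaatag
RYR2 opened region, chr1:237384370-237384569: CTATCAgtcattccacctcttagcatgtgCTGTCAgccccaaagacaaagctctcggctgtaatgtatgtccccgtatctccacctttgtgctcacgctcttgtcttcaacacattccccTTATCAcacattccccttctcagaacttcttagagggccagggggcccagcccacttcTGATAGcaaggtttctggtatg
MEF2C opened region, chr5:88786001-88786200: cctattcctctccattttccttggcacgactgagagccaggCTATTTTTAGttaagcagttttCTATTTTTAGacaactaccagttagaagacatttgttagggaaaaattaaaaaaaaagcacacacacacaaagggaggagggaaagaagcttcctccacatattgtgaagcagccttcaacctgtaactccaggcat
CTNNA3 opened region, chr10:67575648-67575847: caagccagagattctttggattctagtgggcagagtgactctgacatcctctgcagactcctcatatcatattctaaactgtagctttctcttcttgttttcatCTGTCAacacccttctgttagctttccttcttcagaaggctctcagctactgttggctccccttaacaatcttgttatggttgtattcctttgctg
CACNB2 opened region, chr10:18180007-18180206: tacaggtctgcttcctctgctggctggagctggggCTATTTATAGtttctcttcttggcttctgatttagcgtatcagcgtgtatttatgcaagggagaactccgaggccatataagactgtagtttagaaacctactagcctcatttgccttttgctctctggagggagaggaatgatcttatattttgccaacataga
CACNA2D1 opened region, chr7:82410578-82410777: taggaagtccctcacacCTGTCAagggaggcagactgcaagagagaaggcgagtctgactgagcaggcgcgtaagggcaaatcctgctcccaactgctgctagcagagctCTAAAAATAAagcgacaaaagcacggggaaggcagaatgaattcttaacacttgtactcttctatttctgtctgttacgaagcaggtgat

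These opened regions belong to the retinoid receptor gene RXRG, the ryanodine receptor gene RYR2, the transcription factor gene MEF2C, the alpha-T-catenin gene CTNNA3 and the calcium channel subunit genes CACNB2 and CACNA2D1. None of them had a peak in either CP library. The next 3 are shown because they hold the MEF2 consensus at genes of the contractile apparatus, namely the Z-disc gene NEBL, the slow myosin gene MYH7 and the cardiac actin gene ACTC1.
NEBL opened region, chr10:20963915-20964114: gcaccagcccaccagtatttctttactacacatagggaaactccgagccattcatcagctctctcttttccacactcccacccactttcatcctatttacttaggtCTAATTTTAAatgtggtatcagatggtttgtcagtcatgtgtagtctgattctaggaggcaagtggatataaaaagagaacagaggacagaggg
MYH7 opened region, chr14:23443455-23443654: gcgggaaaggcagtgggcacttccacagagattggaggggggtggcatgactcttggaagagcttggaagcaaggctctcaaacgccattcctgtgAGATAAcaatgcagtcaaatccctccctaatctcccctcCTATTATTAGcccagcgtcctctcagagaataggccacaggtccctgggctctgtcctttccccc
ACTC1 opened region, chr15:34796935-34797134: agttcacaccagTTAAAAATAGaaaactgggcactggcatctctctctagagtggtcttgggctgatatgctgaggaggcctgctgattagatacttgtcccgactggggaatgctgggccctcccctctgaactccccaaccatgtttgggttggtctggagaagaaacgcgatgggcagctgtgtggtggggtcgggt

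For contrast, 3 of the closed regions with the highest fold at a listed gene follow, with the forkhead consensus (TGTTTAC) marked in place of MEF2. They lie in or near CTNNA3, the retinoic acid receptor gene RARB and CACNA2D1, so that 2 of these genes are also represented among the opened regions.
CTNNA3 closed region, chr10:66627256-66627455: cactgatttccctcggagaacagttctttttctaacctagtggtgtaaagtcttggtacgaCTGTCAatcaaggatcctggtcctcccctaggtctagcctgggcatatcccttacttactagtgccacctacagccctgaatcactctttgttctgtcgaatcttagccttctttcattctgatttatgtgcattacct
RARB closed region, chr3:24952507-24952706: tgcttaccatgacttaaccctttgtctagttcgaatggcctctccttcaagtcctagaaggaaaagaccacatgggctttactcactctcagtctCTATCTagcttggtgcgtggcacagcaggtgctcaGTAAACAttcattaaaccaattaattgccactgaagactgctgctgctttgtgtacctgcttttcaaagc
CACNA2D1 closed region, chr7:81956613-81956812: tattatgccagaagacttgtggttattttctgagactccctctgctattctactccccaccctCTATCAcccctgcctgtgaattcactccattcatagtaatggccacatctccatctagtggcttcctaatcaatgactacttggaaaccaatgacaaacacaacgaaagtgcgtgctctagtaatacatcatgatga

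The libraries were not equal, which bears on every count below. The lists of CP replicates 1 and 2 held 99789 and 120133 peaks, and those of CM replicates 1 and 2 held 92731 and 55777. The number of peaks was lower in both CM libraries than in both CP libraries (log2 difference −0.61, two-sided exact permutation p = 0.333, n = 2 and 2), and 0.333 is the smallest p that 2 against 2 libraries allow. The lowest local background of CM replicate 2, computed from fold and −log10 p, was 2.54 reads per position, against 4.57 in CM replicate 1, 3.68 in CP replicate 1 and 3.30 in CP replicate 2. The part of depth in the classes was not tested. Replicates shared 47.0% (CP) and 41.9% (CM) of the regions found in either, and a CP and a CM library shared 32.5% to 39.9%.

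The excess of closed over opened regions turned around without CM replicate 2. Without that library the same rule gave 26410 opened and 20555 closed regions, and without CM replicate 1 it gave 10536 and 33102. Leaving out CP replicate 1 gave 4771 and 54739, and leaving out CP replicate 2 gave 8194 and 42453. When each list was trimmed to the 55777 peaks of highest −log10 q, 5604 regions were opened and 6376 were closed. The numbers of opened and closed regions are therefore given as counts of these lists and not as a balance of gain and loss.

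**Figure D1:**
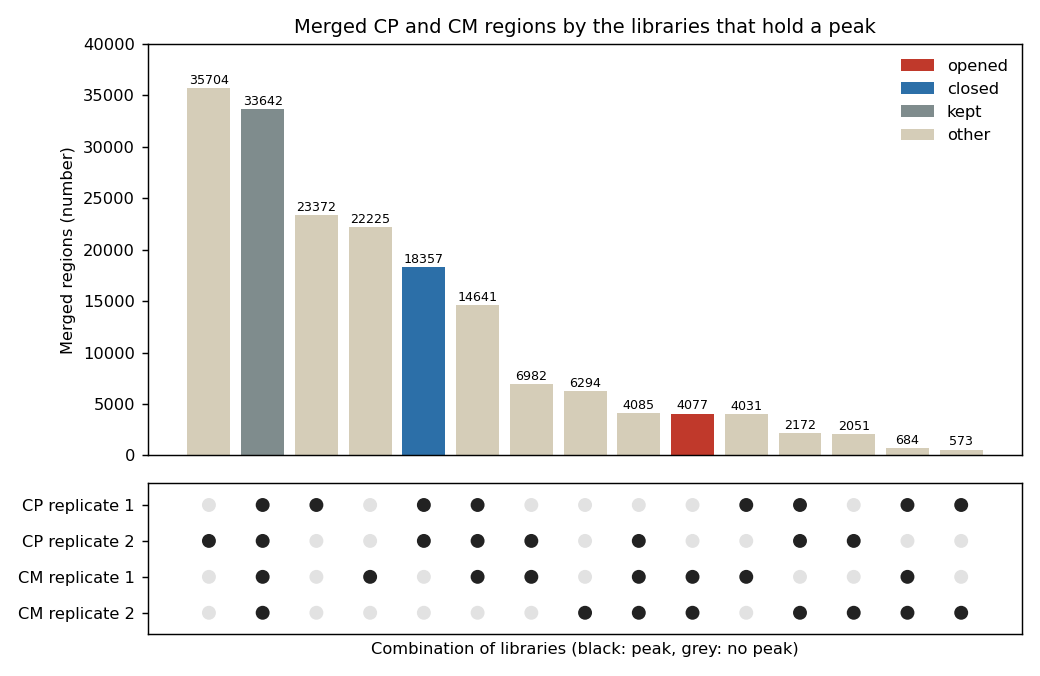
Number of merged regions (vertical axis) for each combination of the 4 CP and CM libraries that hold a peak (black dots under each bar). Regions in CP replicate 2 only (35704) outnumber the kept regions (33642), and the combination of both CM libraries with CP replicate 2 (4085) is as frequent as the opened class (4077).

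CP replicate 2 held more regions of the CM libraries than CP replicate 1, and it also has the longer list, with 117634 against 97472 merged regions. As a share of the regions found in either library, CP replicates 1 and 2 were alike. They shared 39.3% and 39.9% with CM replicate 1, and 32.5% and 32.5% with CM replicate 2. The part of list length in the counts below was not tested. Of the 42488 regions with a peak in both CM libraries, 4085 also had a peak in CP replicate 2 only and 684 in CP replicate 1 only. These 4085 regions are left out of the opened class by the rule, and the promoters of the cardiac troponin T gene TNNT2 and of the atrial myosin gene MYH6 are among them. They are referred to as regions shared by both CM libraries and CP replicate 2, and are given for the genes whose promoters or named regions they touch.

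The labels were checked at the start sites of marker genes. A peak within 1 kb of the transcription start site (TSS) was present for 5 and 6 of 9 cardiomyocyte markers in CP replicates 1 and 2. It was present for 7 and 6 in CM replicates 1 and 2, and already for 4 in each hESC and 5 in each MES library. Of 8 cardiac progenitor markers, 6 and 7 had a peak in CP and 8 in each CM library, so they did not set CP apart from CM. Mesoderm markers had 4 of 4 in all 8 libraries. The check thus separates the stages only weakly. MYH7 and MYL2, the ventricular myosin genes, had no such peak in any of the 8 libraries, and NPPA, the gene of atrial natriuretic peptide, had one in CM replicate 1 only, with a fold of 3.11. NANOG, a pluripotency gene, had a peak in all 4 hESC and MES libraries, with folds of 4.47 to 5.73, and in no CP or CM library. The other pluripotency markers did not follow it, as PRDM14 had a peak in all 8 libraries, DPPA4 in all but CM replicate 1 and POU5F1 in none. Of these 4 markers, 2 had a peak in each CP library and 1 and 2 in CM replicates 1 and 2. Of the 42 listed genes of the contractile apparatus, 25 and 28 had a promoter peak in the CP libraries and 36 and 30 in the CM libraries. Promoter peaks at markers of other cell types were frequent at every stage, with 4 of 4 neural markers and 4 or 5 of 6 epicardial and stromal markers in each CP and CM library. Endothelial markers had 1 or 2 of 5 in these libraries, with CDH5 at none, and their part in the results was not tested.

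Most opened regions had no peak at the earlier stages. The hESC and MES libraries played no part in the rule, and a peak was present in 7.85% and 15.7% of the opened regions in hESC replicates 1 and 2 and in 9.32% and 16.9% in MES replicates 1 and 2. No earlier library had a peak in 3002 of the 4077 opened regions (73.6%), against 33.2% of all merged regions. The rule takes any region with a CP peak out of the opened class. All merged regions include the kept class, of which 83.9% had a peak in all 4 earlier libraries. The difference is thus partly set by the rule and is given as a description. The closed regions were largely present before CP. A peak was found in 52.3% and 67.7% of them in hESC and in 66.1% and 80.5% in MES, and 7524 (41%) had one in all 4 earlier libraries. Both MES libraries held 62.9% of the closed regions, but 35.1% and 41.2% when CP replicate 1 or 2 was left out. For the opened regions this share was 6.87%, and it was 12.5% and 15.4% without CP replicate 1 or 2. A smaller set of 2041 closed regions (11.1%) had a peak in both MES libraries and in neither hESC library.

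Reappearance was rare when a peak in all 4 earlier libraries was asked for. Peaks in all 4 earlier libraries, absence from both CP libraries and a peak in both CM libraries were combined in 104 regions, which is 2.55% of the opened class. With a peak in both MES libraries asked for instead, there were 280 such regions (6.87%). This share depended on the lists, from 5.94% without CM replicate 1 to 19.3% with lists of equal length. In the kept class a peak was present in 86.2% to 94.7% of regions in each earlier library. The regions shared by both CM libraries and CP replicate 2 lay between the opened regions and all merged regions, with 23.2% and 36.5% in hESC and 27.1% and 41.8% in MES. In each class the replicate 2 libraries, which have the longer lists at both early stages, gave the higher share.

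**Figure D2:**
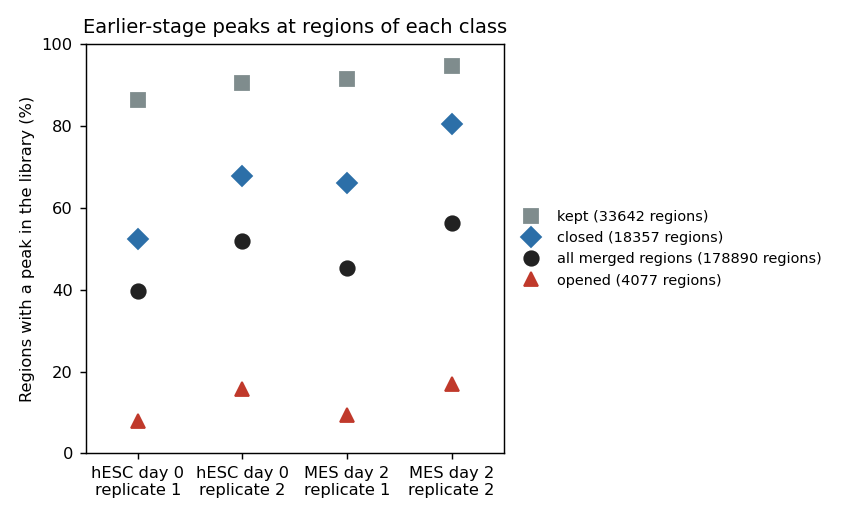
Share of the regions of each class (vertical axis, %) that hold a peak in each hESC and MES library (horizontal axis), with 1 point per class and library. The opened regions sit between 7.85% and 16.9%, below all merged regions in every library, and the closed regions between 52.3% and 80.5%, above them. All merged regions include the kept class.

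Opened and closed regions were mostly distal. Their midpoints lay within 1 kb of a protein-coding TSS in 3.95% of the opened regions (95% Wilson interval 3.39 to 4.59%) and in 4.71% of the closed regions (4.41 to 5.02%), against 42.3% of the kept regions and 11.9% of all merged regions. The intervals cover counting error only. The median distance to the nearest such TSS was 48516 bp for opened, 52580 bp for closed and 6381 bp for kept regions. Introns held 48.0% of the opened and 37.7% of the closed regions, and 42.1% and 51.0% were intergenic. Opened regions had a lower GC content in the 200 bp window (median 47.5%) than closed (53.0%) and kept regions (61.0%). Kept regions were also wider, with a median of 716 bp against 361 bp for opened and 346 bp for closed regions.

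The peaks of opened regions were of moderate height. Their median fold was 4.47 in CM replicate 1 and 4.98 in CM replicate 2, and closed regions had medians of 4.27 and 5.06 in CP replicates 1 and 2. Kept regions were taller, with medians of 5.69 and 6.0 in the CM and 6.2 and 8.16 in the CP libraries. The classes border on regions that missed them narrowly. An opened region in an intron of CACNA1E was just inside, with a −log10 q of 2.62 in CM replicate 2, while a region in MGAT5 with 11.3 and 17.9 in the CM libraries was just outside, since CP replicate 1 had a peak of 2.52 there. On the closed side, a region in MCU was just inside with a −log10 q of 2.44 in CP replicate 1. A region near ZNF469 was just outside because of a peak of 2.41 in CM replicate 1.

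The sequence of the opened regions differed from that of the other classes at the consensus sites of GATA, NKX, MEIS and MEF2 factors. The GATA consensus was found in 46.1% of opened regions (95% Wilson interval 44.6 to 47.7%), in 29.2% of closed, 17.7% of kept and 26.9% of all merged regions. The NKX consensus was in 21.3% of opened regions (20.1 to 22.6%), 8.79% of closed and 9.91% of all regions. The MEIS consensus was in 27.4% (26.1 to 28.8%), 17.0% and 17.9%, in the same order. MEF2, the consensus of a factor family of muscle genes, was in 383 opened regions, or 9.39% (8.54 to 10.3%), in 0.452% of closed, 0.803% of kept and 1.17% of all merged regions. Regions of 1 genome are not replicates, so these shares are given with no test. Both shares of opened regions rested on CM replicate 2. When a peak in CM replicate 1 alone was asked for, the GATA share was 27.1% of opened and 29.2% of closed regions, so that the order of the classes turned around. With a peak of either replicate it was 29.5% and 29.2%. Without CM replicate 2 the MEF2 share was 3.16%, against 0.472% of the regions then closed. Without CM replicate 1 the GATA and MEF2 shares of opened regions were 41.9% and 5.82%.

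Combinations of sites followed the same order. At least 1 of the GATA, NKX, MEF2 and MEIS consensus sequences was present in 73.2% of opened, 46.4% of closed, 31.9% of kept and 45.2% of all merged regions. GATA and MEF2 matches occurred together in 170 opened regions (4.17%) and in 25 closed regions (0.136%). The AP-1 consensus (TGANTCA) was in 13.8% of opened and 6.01% of closed regions, the TEAD consensus (GGAATG) in 18.9% and 14.3%, and the SRF consensus in 2.04% and 0.942%. The order was reversed for forkhead factors, with 2.75% of opened and 5.51% of closed regions, and for CTCF, the architectural factor, with 0.760% and 3.77%. The SP/KLF consensus (GGGCGG) of promoters was in 4.44% of opened, 10.2% of closed and 36.8% of kept regions.

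The MEF2 share was higher in opened than in closed regions within each range of base composition. In windows with a GC content under 45% it was 13% for opened, 1.66% for closed and 4.09% for all merged regions. Between 45% and 55% it was 8.28%, 0.455% and 1.14%, and from 55% it was 5.50%, 0.0989% and 0.399%. The GATA share was more dependent on composition, with 63.6% of opened and 57.0% of closed regions under 45% GC and 17.1% and 13.8% from 55%. Beyond 1 kb of a TSS the MEF2 consensus was in 9.24% of opened and 0.469% of closed regions.

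**Figure D3:**
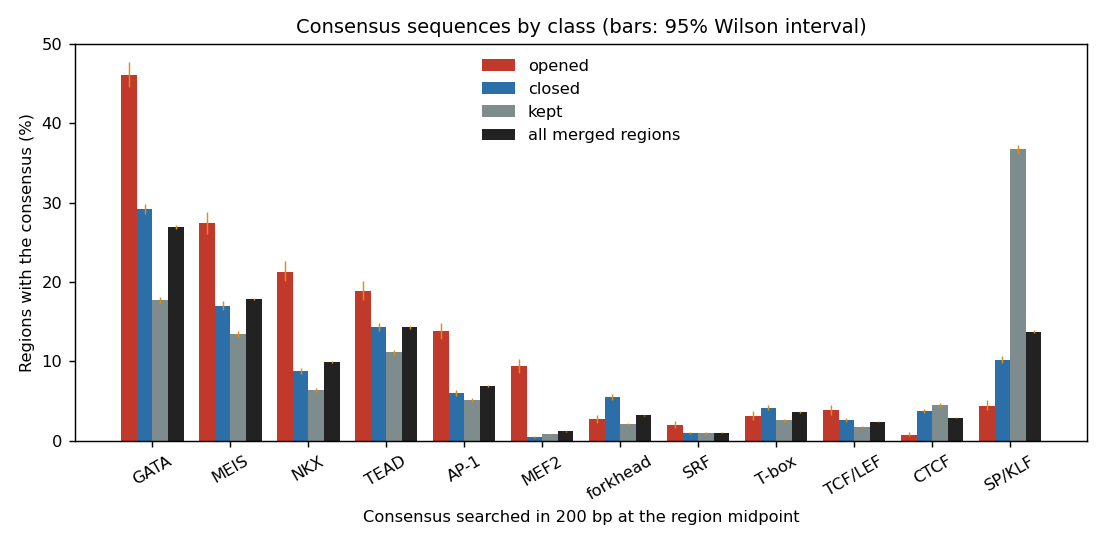
Share of regions with each consensus sequence (vertical axis, %) in the 200 bp at the midpoint, for opened, closed, kept and all merged regions, with 95% Wilson intervals as error bars. MEF2 stands at 9.39% of opened against 0.452% of closed regions, and SP/KLF at 36.8% of kept regions.

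Taken over all peaks of each library, the MEF2 consensus was in 1.64% and 2.02% of the CM peaks and in 0.560% and 0.706% of the CP peaks. The libraries did not overlap, and the two-sided exact permutation p was 0.333 (0.666 after Benjamini-Hochberg adjustment over 22 measures), the smallest unadjusted p possible. For GATA, the CP libraries had 22.0% and 27.5% and the CM libraries 23.5% and 25.7%, which overlapped. Not all consensus sequences of cardiac factors were higher in CM. The T-box consensus (GGTGTGA) was in 3.72% and 3.38% of the CP peaks and in 3.33% and 2.84% of the CM peaks. For the E-box of HAND factors (CAGATG) the values overlapped, with 14.3% and 15.2% in CP and 14.3% and 13.1% in CM. In regions shared by both CM libraries and CP replicate 2, GATA was in 45%, MEIS in 28.4% and NKX in 15.7%, while MEF2 was in 3.6%.

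Sites also differed with the history of a region. Among closed regions present in both MES and neither hESC library, GATA was in 52.5%, forkhead in 9.02% and the T-box consensus (GGTGTGA), which EOMES and TBXT recognize, in 7.99%. Closed regions present in all 4 earlier libraries had GATA in 20.8%, forkhead in 5.17% and T-box in 3.99%, and CTCF in 6.07%. The 3002 opened regions with no earlier peak had MEF2 in 10.3% and the 104 with a peak in all 4 earlier libraries in 6.73%.

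Across genes, a region was assigned to every protein-coding gene whose span, or the 10 kb around it, held the midpoint of the region. Of 19962 genes, 2218 (11.1%) had an opened region, 6717 (33.6%) a closed region and 16691 (83.6%) a kept region. With overlap between the sets, 2335 genes (11.7%) had a region shared by both CM libraries and CP replicate 2. These shares rose with gene length. Opened regions were at 2.28% of the genes in the shortest length quartile (median 4.51 kb) and at 28.8% of those in the longest (median 137 kb), and closed regions at 18.3% and 62.6%. At TSSs, 65 genes (0.326%) had an opened region within 1 kb and 573 (2.87%) had a closed region there.

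Opened promoters included several of heart muscle. The 64 regions behind the 65 promoters had folds of 2.25 to 6.98 in CM replicate 1 and of 2.46 to 7.89 in CM replicate 2. No earlier peak was present in 36 of them. PLN, which encodes the calcium pump inhibitor phospholamban, had its opened region at chr6:118548143-118548394, 28 bp from the TSS, with folds of 6.82 and 5.65 in the CM libraries and no peak in any of the other 6 libraries. CSRP3, for the Z-disc protein MLP, had 6.86 and 7.89, and MYPN, for the Z-disc protein myopalladin, had 5.74 and 6.22. Both lacked a peak in the other 6 libraries as well. MYOM1, for the M-band protein myomesin, had 5.56 and 4.66, and MYL3, for the ventricular essential light chain, had 3.43 and 4.28.

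Other opened promoters were those of the thin filament gene TNNC1, with folds of 2.93 and 3.38, of the calcium-binding protein gene HRC, with 3.28 and 3.78, and of the intercalated disc gene CTNNA3, with 5.03 and 5.56. LRRC10, a heart-specific gene, had 6.98 and 6.04 in CM and also a peak of 4.30 and 3.65 in MES. TBX5, for a T-box factor of the heart, had a narrow region 61 bp from its TSS with folds of 2.68 and 3.34, and no opened region at a −log10 q of at least 5. The remaining set was mixed and held genes with other known roles, such as MYC, the Notch ligand gene JAG2, the blood cell factor gene TAL1 and the water channel gene AQP1. Of the 65 genes, 48 had no kept region at the same promoter. TTN and MYC were among the 17 that did.

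Closed promoters included genes of pluripotent and of early embryonic cells, and also genes of the heart and energy metabolism lists. Of the 573 genes, 382 had no kept region at the same promoter. The cardiac factor gene IRX4 and TNNT2 were among these 382. The calcium channel gene CACNA1H and the metabolic gene ESRRA had a closed and a kept region at the promoter. DPPA2 and DPPA4, neighbouring genes of pluripotent cells, had promoter folds of 5.98 and 5.11, and of 6.33 and 6.55, in CP replicates 1 and 2, with peaks in all 4 earlier libraries. In the closed DPPA2 region the folds were 10.5 and 10.0 in hESC and 9.83 and 8.65 in MES, above both CP values. MSGN1, a factor of presomitic mesoderm, had 4.97 and 6.37 in hESC, 6.53 and 7.05 in MES and 4.01 and 6.09 in CP. The promoter of ZIC1, a neural factor gene, had 3.36 and 3.12 in CP, and that of DLL1, a Notch ligand gene, 2.68 and 2.12. At DPPA4 the rule concerned 1 region, and CM replicate 2 held another peak within 1 kb of the TSS, with a fold of 4.76.

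The thick filament genes led the contractile lists. Of 11 genes, 7 (63.6%) had an opened and 5 (45.5%) a closed region, against 11.1% and 33.6% of all genes. In all there were 9 opened and 7 closed regions. Opened regions thus made up 56.2% of the changed ones, against 18.2% over the genome. MYH7 had opened regions 7232 and 7895 bp from its TSS. The farther of these, which holds GATA, MEF2, TEAD and SOX matches and is printed above, had folds of 3.49 and 3.63 in the CM libraries and no peak in the other 6. The MYH6 promoter region, at chr14:23408075-23408740, had 4.18 in CP replicate 2 and 4.28 and 5.19 in CM, with none in CP replicate 1 or earlier. The atrial light chain gene MYL7 had 1 opened region. MYL2 and MYBPC3 had neither an opened nor a closed one.

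Thin filament genes had fewer. Of 11 genes, 3 (27.3%) had an opened region and 6 (54.5%) a closed one, against 11.1% and 33.6% of all genes. ACTC1 had opened regions 1486 and 6005 bp from its TSS, with folds of 2.63 and 3.15 at the nearer and 4.39 and 3.90 at the farther. At TNNT2 the region over the TSS was shared by both CM libraries and CP replicate 2, with 5.33 in CP replicate 2 and 3.96 and 5.65 in CM. A separate region 751 bp from the TSS was closed, with 3.15 and 3.6 in CP and a peak in all 4 earlier libraries. TNNT2 thus counts among the closed promoters although the region over its TSS was in both CM libraries.

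Titin and Z-disc genes followed the thick filament, with 9 of 20 (45%) holding an opened and 12 (60%) a closed region. The shares of all genes were 11.1% and 33.6%. TTN, the gene of titin, had 5 opened regions and 1 closed region. Of the opened ones, 3 formed a run over 2.27 kb at chr2:178628646-178630911, between 176651 and 178602 bp from its canonical TSS. Among all 4077 opened regions there were only 2 runs of at least 3 with gaps of at most 10 kb, the other being at AQP1. The folds in CM replicates 1 and 2 were 6.09 and 5.68, 7.61 and 5.71, and 3.18 and 4.17 along the run. The region of 6.09 and 5.68 held GATA, NKX, MEF2 and TEAD matches.

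The TSS region of TTN was kept, with 7.20 and 11.5 in CP and 8.25 and 8.54 in CM, and it had 3.58 in hESC replicate 2 alone among the earlier libraries. A region 662 bp from that TSS was opened, with folds of 4.19 and 4.44. A region 12841 bp from it was shared by both CM libraries and CP replicate 2, at 6.04 in CP replicate 2 and 7.36 and 5.65 in CM. The closed region of TTN lay 23217 bp upstream, with 7.26 and 8.63 in CP and 7.55 and 7.69 in MES. ACTN2, for the Z-disc protein alpha-actinin-2, had 2 opened and 3 closed regions, with opened folds of 3.97 and 4.63 and of 4.49 and 4.17. Another, with NKX and MEF2 matches, was shared by both CM libraries and CP replicate 2, at 5.95 in CP replicate 2 and 3.87 and 3.83 in CM. The TSS region of ACTN2 was kept, with folds of 6.99 to 8.5 in the CP and CM libraries. NEBL had 1 opened region, 66704 bp from its TSS and with the MEF2 consensus, at 4.43 and 4.50, and 2 regions shared by both CM libraries and CP replicate 2. A closed region of NEBL had 9.85 and 11.7 in MES, 4.70 and 6.74 in CP, and no peak in hESC or CM.

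Over the 42 contractile genes together, 19 (45.2%) had an opened region and 23 (54.8%) a closed one. For all genes these shares were 11.1% and 33.6%. Opened regions or regions shared by both CM libraries and CP replicate 2 were at 26 genes. This combined count was not made over all genes, of which 11.7% had such a shared region. Of the changed regions, 44.4% were opened. Without CM replicate 2, 33 genes had an opened region, beside 8592 of all genes. Under each other omission 20 to 26 had one, beside 2542 to 4420 of all genes. In length the 42 genes were near the genome, with a median of 27.5 kb against 27.5 kb for all genes and 11 in the longest length quartile.

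**Figure D4:**
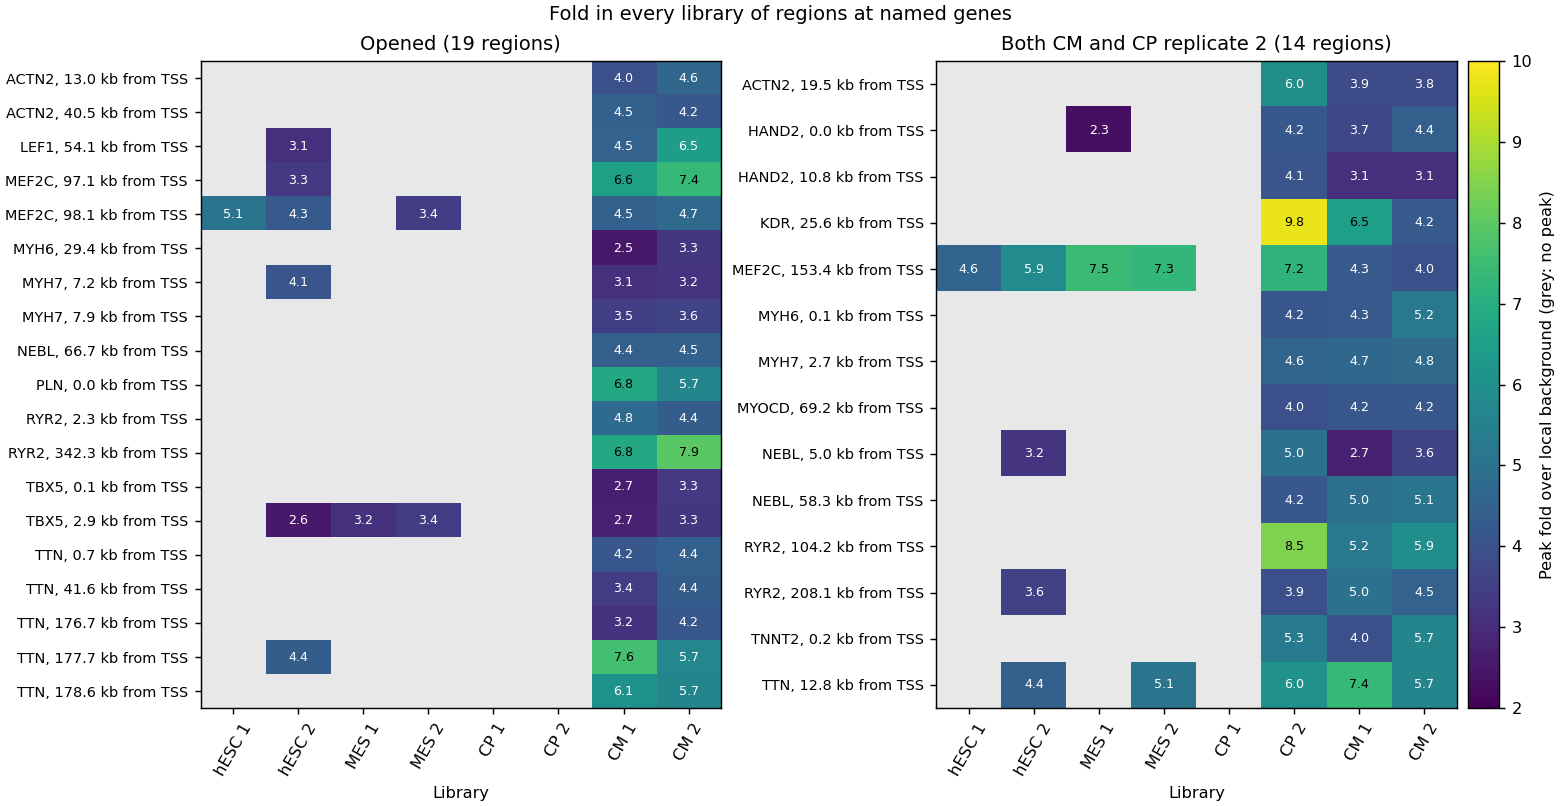
Fold over local background in each of the 8 libraries (columns) for the opened regions and for the regions shared by both CM libraries and CP replicate 2 at the named genes (rows, with distance to the gene's own TSS); grey marks no peak. Of the 19 opened regions, 13 had no earlier peak, and the regions in the right panel carry folds of 3.95 to 9.77 in CP replicate 2.

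Calcium handling genes changed in both directions. Of 16 genes, 10 (62.5%) had an opened region and 9 (56.2%) a closed one, but the closed regions were more numerous, with 45 against 18. These genes are long, with a median of 226 kb, and 10 lie in the longest length quartile, where 28.8% of all genes had an opened and 62.6% a closed region. RYR2, for the ryanodine receptor, had 2 opened and 10 closed regions and 2 shared by both CM libraries and CP replicate 2, with CP replicate 2 folds of 8.46 and 3.95. The opened region 342286 bp from its TSS had folds of 6.82 and 7.95 and no peak in any other library. The closed regions had CP folds of 3.42 to 8.51, and 7 of the 10 had a peak in all 4 earlier libraries. CACNA1C, for the pore of the L-type channel, had 2 opened, 9 closed and 2 such shared regions, TRDN, for triadin, had 8 closed and none opened, and SLC8A1, for the sodium-calcium exchanger, had 3 opened and 6 closed.

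The intercalated disc list, of the junctions between cardiomyocytes, had 7 of 12 genes (58.3%) with an opened and 9 (75%) with a closed region. Of the 12, 8 were in the longest length quartile, where the shares of all genes were 28.8% and 62.6%. CDH2, for N-cadherin, had 3 opened and 5 closed regions, and CTNNA3 had 2 and 6. In CTNNA3 the region over the TSS had 15.4 in CP replicate 2 and 10.8 and 7.91 in CM, with none in CP replicate 1. Ion channel and conduction genes had an opened region in 5 of 17 (29.4%) and a closed one in 11 (64.7%). Of these 17, 8 were in the longest length quartile. The calcium channel gene CACNA1D had 2 opened and 4 closed regions.

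Most cardiac transcription factor genes had a kept region at the promoter, as did 68.8% of all genes. Of 21 genes, 5 (23.8%) had an opened and 9 (42.9%) a closed region, and 10 had a region shared by both CM libraries and CP replicate 2. Over all genes, 11.1% had an opened, 33.6% a closed and 11.7% such a shared region. MEF2C had 2 opened regions 97083 and 98140 bp from its canonical TSS, within 1 kb of the start of other transcripts. The nearer, with a pair of MEF2 matches, had 6.55 and 7.35 in CM and a peak of 3.32 in hESC replicate 2. ZFPM2, for a GATA partner, had 2 opened and 17 closed regions over its 1214 kb. NKX2-5 and MYOCD, the gene of the SRF partner myocardin, had kept TSS regions, with folds of 3.13 and 4.11 in CP and 3.96 and 4.57 in CM for NKX2-5. HAND2 had a TSS region of 4.2 in CP replicate 2 and 3.74 and 4.42 in CM. ISL1, a factor of the second heart field, had 2 closed regions, with 3.31 and 3.47 at the nearer to its TSS, and a kept TSS region. IRX4 also had 2 closed regions, with a closed promoter and no kept region.

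Of 27 genes of mesoderm and progenitors, 1 (3.70%), the BMP modulator gene BMPER, had an opened region and 10 (37.0%) a closed one. These genes are short, with a median of 6.13 kb, and in the shortest length quartile 2.28% of all genes had an opened and 18.3% a closed region. EYA1, a transcription cofactor of early organs, had 8 closed regions and MIXL1 had 2. The EOMES region 8038 bp from the TSS had folds of 3.98 and 3.93 (MES) and 3.58 and 3.08 (CP), with no peak in hESC or CM. MESP1, the early cardiac mesoderm factor gene, kept its TSS region, with 5.92 and 7.31 in CM.

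The endoderm, neural ectoderm and smooth muscle lists had no opened region. None of the 11 endoderm, 15 neural ectoderm and 7 smooth muscle genes had one. A closed region was at 7 (63.6%), 9 (60%) and 5 (71.4%) of them, with 40 closed regions over the 33 genes. Over all genes, the shares were 11.1% (opened) and 33.6% (closed). Of the 33, 7 (21.2%) had a region shared by both CM libraries and CP replicate 2, against 11.7% of all genes. The 33 genes had a median length of 12.5 kb, and 5 were in the longest length quartile. Among all genes of 9.76 to 27.5 kb, 4.09% had an opened and 23.1% a closed region. With 33 genes and such shares, the absence of opened regions is not read as a trait of these lists. FOXA2, for an endoderm factor, had 3 closed regions, and ZIC1 had 4. Of the smooth muscle genes, SMTN had 3 and MYH11 had 2. Many genes of these lists had a kept region at the promoter, as did 68.8% of all genes. ACTA2, for smooth muscle actin, had a region 936 bp from its TSS with 8.16 in CP replicate 2 and 5.68 and 5.52 in CM.

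The endothelial and blood list had 5 of 16 genes (31.2%) with an opened and 10 (62.5%) with a closed region, led by RUNX1 with 3 opened and 4 closed regions and ERG with 5 closed. The epicardial and stromal list had 5 of 10 (50%) and 6 (60%), and TBX18 and TCF21, for epicardial factors, each had 1 opened region. Extracellular matrix genes had 7 of 20 (35.0%) and 13 (65.0%), with 2 opened regions each at COL4A1, COL4A2, COL5A1 and LAMA4. Members of the matrix list are long, with 11 in the longest length quartile. Over all genes 11.1% had an opened and 33.6% a closed region, and in that quartile 28.8% and 62.6%.

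Among the signalling lists, the Wnt list had the highest share of genes with an opened region, just above the 25.9% of the BMP, TGF-beta and Nodal list. The retinoic acid list had the highest share with a closed one. Over all genes, 11.1% had an opened and 33.6% a closed region. Of 34 Wnt genes, 9 (26.5%) had an opened and 15 (44.1%) a closed region. The receptor gene ROR2 and the repressor gene TCF7L1 had 3 opened regions each, and NKD1, a Wnt feedback gene, had 3 closed regions, of which 1 was at its promoter with 2.92 and 3.80 in CP. AXIN2, another feedback gene, had 1 opened region at 3.25 and 3.97. LEF1, for a factor at the end of the pathway, had 1 of each. Of 18 retinoic acid genes, 3 (16.7%) had an opened and 13 (72.2%) a closed region. RXRG had 3 opened and no closed regions, whereas RARB had 3 opened and 8 closed.

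Of 27 BMP, TGF-beta and Nodal genes, 7 (25.9%) had an opened and 14 (51.9%) a closed region, with BMP10, a ligand of heart muscle, among the former and LEFTY2 and NODAL among the latter. The FGF list had 2 of 18 (11.1%) and 7 (38.9%), and the Notch list 3 of 16 (18.8%) and 5 (31.2%). Cell cycle genes had 3 of 25 (12.0%) and 7 (28.0%). The shares with an opened region of the FGF and cell cycle lists were near the 11.1% of all genes. For closed regions the share of all genes was 33.6%. BUB1 and MKI67 had a closed region at the promoter, and each also had a kept one there. CCND2, for cyclin D2, had a kept TSS region with folds of 3.09 to 4.05 over the CP and CM libraries. The list of pluripotent cells had 2 of 16 genes (12.5%) with an opened and 8 (50%) with a closed region, and 4 of the latter, DPPA2, DPPA4, PRDM14 and ZFP42, had it at the promoter. PRDM14 and ZFP42 also had a kept region at the same promoter.

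Energy metabolism genes had opened regions at 4 of 20 (20.0%) and closed regions at 4 (20.0%). Over all genes the shares were 11.1% and 33.6%. PPARGC1A, for a coactivator of mitochondrial genes, had 2 opened regions, with folds of 6.70 and 5.56 and of 6.28 and 6.15, and CD36, for a fatty acid transporter, had 3 closed. Of the 8 genes of natriuretic peptides and secreted factors, 2 had an opened and 1 a closed region, NRG1 having 1 and 11. RBM20 and its target genes, a list the study had chosen for these cells and which shares TTN, RYR2 and others with the lists above, had 7 of 11 (63.6%) with an opened and 9 (81.8%) with a closed region. Their median length was 305 kb, and 9 of the 11 were in the longest length quartile. In that quartile 28.8% of all genes had an opened and 62.6% a closed region.

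**Figure D5:**
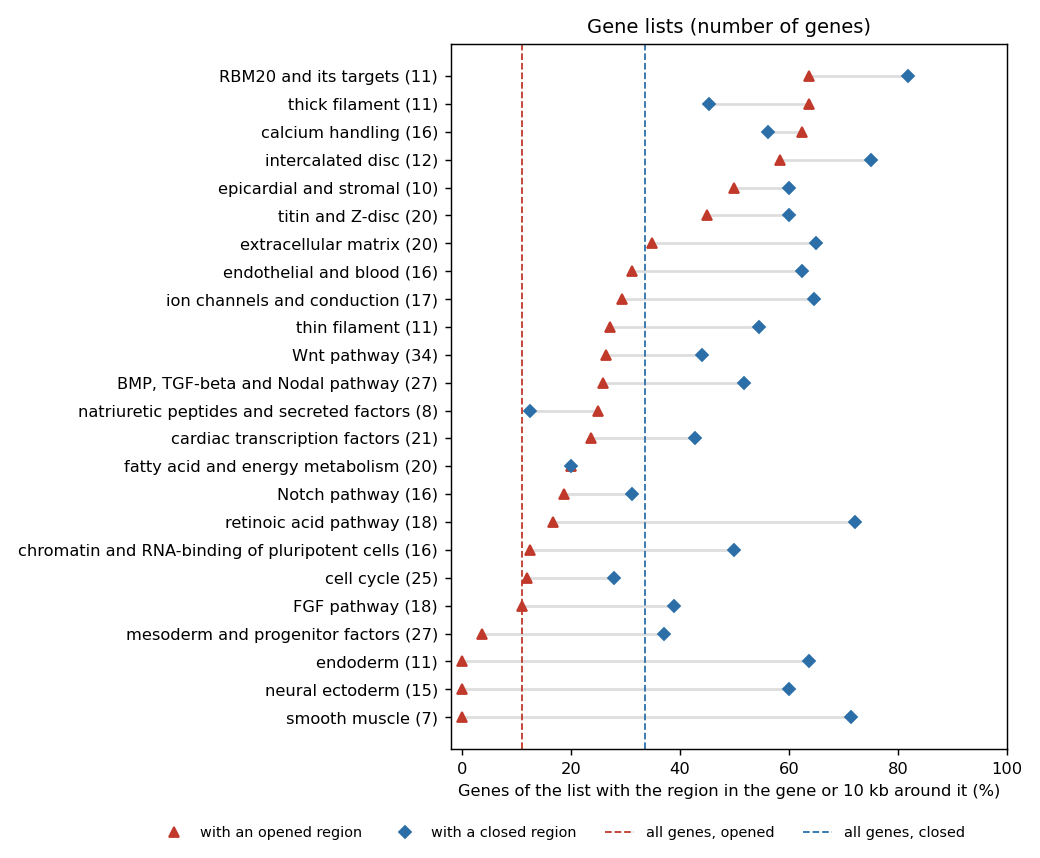
Share of the genes of each list (horizontal axis, %) with an opened region (triangles) or a closed region (diamonds) in the gene or 10 kb around it, with the number of genes in brackets and the shares of all protein-coding genes as dashed lines at 11.1% and 33.6%. The thick filament list stands at 63.6% opened. The endoderm, neural ectoderm and smooth muscle lists, with a median gene length of 12.5 kb together, stand at 0 opened.

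By number of regions, the leading genes were long neuronal and adhesion genes in both directions. PTPRM, for a receptor phosphatase, had 8 opened regions, and CTNNA2, for alpha-N-catenin, and AUTS2 had 7 each. DLG2, for a synaptic scaffold protein, had 19 closed regions and CTNNA2 and ZFPM2 were among those with 17. The 10 genes with the most opened regions spanned 487 to 2060 kb, and all had closed regions as well, from 2 at ADGRL2 to 17 at CTNNA2.

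In kept regions the folds of the CP and CM libraries were compared. Folds were centred on the median of kept regions in each library. The value was then higher in both CM than in both CP libraries at 9949 kept regions (29.6%) and lower at 5544 (16.5%). At promoters the shares were 40.6% and 6.97%, and in introns 21.7% and 23.7%. Kept regions with the MEF2 consensus, of which there were 270, were higher in 48.5% and lower in 10.7%. Those with the forkhead consensus were higher in 21.1% and lower in 31.7%, and those with CTCF in 16.4% and 24.2%. The fold is capped from below by the threshold of the peak caller, and these shares are a description with no test, from which no change is read.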

How the data were processed

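ATAC-seq peak lists of 8 libraries were analysed, of which the 4 CP and CM libraries defined the regions and the hESC and MES libraries were used as earlier stages. Per the labels and the study's methods, the authors aligned reads to hg38 with BWA-MEM (0.7.13), kept primary alignments of mapping quality above 30, removed duplicates and called peaks in each library with MACS2 (2.1.0, q-value 0.01, shift 100 bp upstream, extension 200 bp). The deposited lists give for each peak its fold over the local background, the −log10 p and −log10 q, the summit and a score. The deposited score was not used. The lists hold no reads per region, so the pileup and local background of each peak, in reads per position, were solved from fold and −log10 p, with −log10 p recovered within 0.001 for all peaks, in a step first tested on simulated data.

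Peaks on chromosomes 1 to 22 and X were merged with bedtools (2.31.1), and a region had the highest fold of a library's peaks in it. Genes and TSSs were from GENCODE 44. Promoter means a midpoint within 1 kb of any protein-coding TSS, and a gene's promoter means overlap with 1 kb on either side of its canonical TSS. The 20 consensus sequences were searched on both strands of the 200 bp at the midpoint of each region. Statistics were computed with scipy (1.17.1) and pandas (2.3.3) under Python (3.11.15), sequences were read with pysam (0.24.0) and plots were drawn with matplotlib (3.10.9).

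The regions and the 24 gene lists (387 genes) were chosen with earlier results of these data known. Genes were named from each list by the most opened or closed regions and by changed promoters, with 21 genes given in every library, and a few others, such as AXIN2, were named after their values were seen. The libraries, as the unit of replication, were compared by two-sided exact permutation. The labels do not say whether replicate numbers pair the CP and CM libraries. Their deviations over kept regions correlated at 0.0172, a value from peak folds that cannot decide it. The libraries were compared as unpaired, with the replicate block as an alternative. Alternatives were a stricter threshold, lists of equal length, peaks of either replicate, peaks over at least 50% of a region, other windows, annotations and gene assignments, and each library left out. Those for the MEF2 consensus and the contractile genes were chosen after seeing the data. With peak lists alone, the absence of a peak means that the threshold was not passed, not that the site was closed. Some items that the naming rule selects are not reported here.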

Additional observations from a re-analysis of the deposited data

How the results depend on the processing

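The number of opened regions was 32596 when a peak of either replicate sufficed, and 4771 to 26410 when each library was left out in turn. Closed regions numbered 6376 with lists of equal length, 77433 with either replicate and 20555 to 54739 with each library left out, and kept regions 68861 with either replicate. The log2 ratio of opened to closed regions was −0.19 with lists of equal length, −1.25 with either replicate and −3.52 to 0.36 with a library left out, and it changed sign only without CM replicate 2. The log2 ratio of peaks per library was −0.97 to −0.24 with a library left out (exact permutation p = 0.667) and −0.61 with the replicate block (exact p = 0.5, the smallest that 2 pairs allow).

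With lists of equal length, opened regions had 5.23% within 1 kb of a TSS, 44.5% with GATA, 8.07% with MEF2 and 19.3% in both MES libraries, 82.4% of closed regions were in both MES libraries and 3206 genes had a closed region. With either replicate, opened regions had 29.5% with GATA, 3.17% with MEF2 and 6.13% in both MES libraries, 9421 genes and 35 contractile genes had one, and for closed regions the values were 4.13% near a TSS, 31.7% in both MES libraries and 13602 genes. At a −log10 q of at least 5, GATA was in 48.0% of opened regions, and closed regions were near a TSS in 5.2% and in both MES libraries in 69.5%. With peaks over at least 50% of a region, 8.88% of opened and 66.7% of closed regions were in both MES libraries, and closed regions had 5.74% near a TSS and 28.3% with GATA. The TSSs of all transcripts gave 10.1% of opened and 11.5% of closed regions. Searching whole regions gave GATA in 61.1% and 44.5% and MEF2 in 14.0% and 1.23% of opened and closed regions, and the window at the summit gave MEF2 in 0.300% of closed regions.

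Leaving out each library gave, for opened regions, 3.31% to 4.64% near a TSS, 27.1% to 45.8% with GATA, 3.16% to 8.47% with MEF2, 5.94% to 15.4% in both MES libraries, 2542 to 8592 genes and 20 to 33 contractile genes. For closed regions it gave 4.15% to 6.98% near a TSS, 24.9% to 32.2% with GATA, 35.1% to 69.7% in both MES libraries and 7296 to 11824 genes. The cause of these changes was not tested beyond the construction of each alternative. The MEF2 share was higher in opened than in closed regions under every alternative run. For counts at named genes, 221 of 336 values under the alternatives stayed within 1.5 times.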

Other observations

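The tallest opened regions lay away from the listed genes. Ranked by the lower of the CM folds, the region of an intron of MYCBP2 led with 13.8 and 13.7 in CM replicates 1 and 2. It was followed by regions near CCBE1, a gene of lymphatic vessel growth, with 12.1 and 11.7, near the potassium channel gene KCNA4 with 13.7 and 11.4, and near HNF4G with 13 and 11.4. The closed regions with the highest lower CP fold were near AGA, with 12.8 and 16.6, IL2, with 12.5 and 17.8, and GBE1, with 12.0 and 18.7 in CP replicates 1 and 2.

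Opened regions were thinly spread, with 93.9% having no other opened region within 10 kb, against 84.3% of the more numerous closed regions, of which 131 runs held at least 3. The longest closed run by number had 5 regions at RTN4RL1, and runs of 4 lay at PROX1, a factor gene of lymphatic and heart cells, and at the elastin gene ELN. By chromosome, the opened share of merged regions was lowest on chromosome 19 (1.30%) and X (1.69%) and highest on 18 (2.83%). The closed share was highest on X (12.1%) and lowest on 22 (7.31%).

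The natriuretic peptide locus showed little of the opened class. NPPA had a promoter peak in CM replicate 1 alone, at 3.11, and the promoter of its neighbour NPPB was kept, with folds of 6.2 and 8.52 at day 5 and of 5.22 and 5.04 at day 14, after 6.80 to 8.33 in the 4 earlier libraries.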
